A study of Mus musculus with 10 samples.

Results

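Fibroblasts from tissue punches of the mouse paraventricular thalamus and surrounding regions were examined here. The paraventricular nucleus (PVT) is a thin midline thalamic structure directly under the third ventricle. Single nuclei from these punches were profiled by droplet RNA sequencing, with molecules counted by unique molecular identifier (UMI). The study names neurons of neighbouring regions among them, so the fibroblasts cannot be placed in the PVT itself. A nucleus was taken as a fibroblast where the deposited cell annotation gives it that name, which holds for 179 of 20503 nuclei. The set was compared with the 7 other annotated types, and above all with the 215 endothelial nuclei, the cells that line blood vessels.

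All 10 libraries came from C57BL/6J mice of 12 weeks and no treatment is given. The labels describe fresh tissue punches. The study's methods take the punches from the whole length of the PVT and describe 4 replicates, each pooled from 4 mice. Whether all 10 libraries were pooled in this way is not stated, so a library may be a pool and is not taken as one animal. Titles name 6 libraries as female. The other 4 titles give no sex, but the deposited cell table lists those nuclei as male, and they are called male libraries 1 to 4 here. The 2 sets also differ in the genes that hold UMIs in the deposited matrix. The 13 mitochondrial genes have UMIs there only in female libraries, although the cell table gives mitochondrial percentages above 0 for male nuclei too. In all, 1555 genes with at least 50 UMIs in male libraries have none in female ones, and 509 the reverse.

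Fibroblast nuclei had a median of 2040 UMIs and 1298 genes, with UMI totals from 519 to 19273. Endothelial nuclei had a median of 1756 UMIs and neurons of 11157. For tests across genes, UMIs were summed per library and type, using only sums that held at least 10 nuclei. This kept 8 fibroblast sums (female 1 to 5 and male 2 to 4) and 7 endothelial sums, with 5 libraries giving both. Levels are given as CPM, the counts per 1000000 of a sum's effective library size, which is its UMIs on tested genes multiplied by its TMM scaling factor. These factors ran from 1.16 to 1.43 in fibroblast sums, so there a CPM is lower than the plain count per 1000000 UMIs. The smallest fibroblast sum, of female library 4, held 28632 UMIs on tested genes. Low CPM values in such sums rest on very few UMIs. Between libraries, 46 cell barcodes occurred in 2 of them, and 1 fibroblast nucleus carried such a barcode.

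Brain fibroblasts sit in the leptomeninges, the thin membranes around the brain, and in the sleeve of tissue around larger vessels. They build collagen-rich matrix, lay down basement membrane, and carry transporters that move organic ions and amino acids between cerebrospinal fluid and tissue. Pericytes, a separate cell type, wrap capillaries inside the endothelial basement membrane and share several surface receptors with fibroblasts. The annotation has no type of its own for pericytes or smooth muscle.

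The marker gene is described first. The study used *Cped1* among its marker genes to name cell types, so its level here does not test the name. *Cped1*, the gene given as the marker of these cells, had 1717, 1752, 1279, 1189 and 1186 CPM in the fibroblast sums of female libraries 1 to 5. It had 1849, 1401 and 246.6 CPM in male libraries 2, 3 and 4. Endothelial sums ran from 32.7 to 243.1 CPM, with a median of 61.7, so the groups did not overlap but the sum of male library 4 came close to the highest endothelial one. When each nucleus was thinned to 1000 UMIs, *Cped1* was found in 73.3% ± 21.4 of fibroblast nuclei (SD, n = 8 libraries) against 0.133% ± 0.283 of oligodendrocytes (n = 10 libraries). Thinning left out 27 of the 179 fibroblast nuclei and 148 of 2462 oligodendrocytes, and the median depths of those kept were 2346 and 2378 UMIs. Without thinning the fibroblast share was 78.8% ± 20.1.

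A check counted, in each nucleus, UMIs on a list of 20 fibroblast genes and on 28 genes of pericytes and smooth muscle together. One gene, *Ptgds*, gave 57.5% of the fibroblast list's UMIs in the fibroblast sums. In oligodendrocytes the list stood at 6399 ± 2488 CPM (n = 10 libraries), with 91.4% of its UMIs from *Ptgds*. The fibroblast sum of male library 4 was lower, at 2678 CPM. All 179 nuclei held at least 1 fibroblast-list UMI and 142 held a mural one. Without thinning, *Ptgds* alone had a UMI in 83.1% ± 6 of oligodendrocytes (SD, n = 10 libraries). In fibroblast nuclei this share was 56.7% ± 20.9 (n = 8 libraries). Holding 1 fibroblast-list UMI therefore cannot tell a fibroblast from an oligodendrocyte. A matching share for the mural list was not tested. In 43 nuclei (24%) mural UMIs were at least as many as fibroblast ones. In male library 4 this was so for 13 of 18 nuclei (72.2%), whereas the other 7 libraries with at least 10 fibroblast nuclei lay between 8.33% and 29.2%. Lists of other types were counted in the same way. UMIs of a 12-gene neuron list were at least as many as fibroblast ones in 45 nuclei (25.1%), which included 17 of 18 in male library 4 and 14 of 35 in male library 3. Of these 45 nuclei, 27 were also among the 43 with a mural majority. The astrocyte list reached this level in 33 nuclei (12 of them in male library 4), the choroid plexus list in 8 and the endothelial list in 5. The name fibroblast therefore did not hold for the whole set by its own markers. The counts of called genes and the gene lists are given below also without the mural-majority nuclei, the neuron-majority nuclei or male library 4.

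The 179 nuclei fell into 3 groups by leading genes. The groups were defined after the values had been seen, so they are a description with no test. Each nucleus was given to the triple of genes on which it had most UMIs, with no minimum number. The first triple was *Slc47a1*, an exporter of organic cations, with *Bnc2*, a zinc finger factor, and *Slc4a10*, a bicarbonate transporter. The second was *Lama1*, a laminin chain of basement membrane, with *Slc7a11*, the cystine-glutamate exchanger, and *Ranbp3l*. The third was *Atp13a5*, *Abcc9* and *Rgs5*, which are known markers of brain pericytes. They are called the *Slc47a1*, *Lama1* and *Atp13a5* sets. They held 77, 54 and 39 nuclei, and 9 nuclei were tied or had none of these genes. Some nuclei of the *Slc47a1* set were placed by 1 UMI. *Slc4a10* also had a UMI in 19.5% ± 7.9 of oligodendrocyte nuclei without thinning (n = 10 libraries). The part of background in the sorting was not tested.

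Since the triples placed the nuclei, where their own genes lie is fixed by the sorting. Of the 77 nuclei in the *Slc47a1* set, 68 carried no UMI of the other 2 triples, and the same held for 43 of 54 in the *Lama1* set and 27 of 39 in the *Atp13a5* set. Depth differed, with medians of 2516, 2038 and 1459 UMIs. The genes of the *Atp13a5* triple are also in the mural list, and 38 of the 39 nuclei of that set had a mural majority, against 1 in the *Slc47a1* set and 0 in the *Lama1* set.

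**Figure D1:**
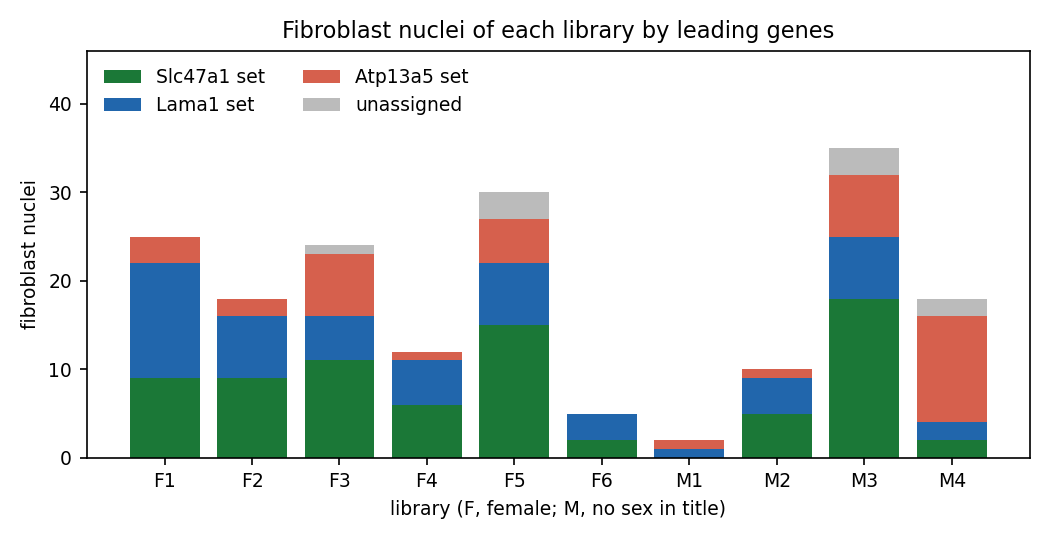
Number of fibroblast nuclei (vertical axis) in each of the 10 libraries, stacked by the gene triple that leads in the nucleus. The Slc47a1 and Lama1 sets make up most nuclei in the female libraries, while 12 of 18 nuclei of male library 4 belong to the Atp13a5 set.

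Each of the 3 sets held nuclei of several libraries, although sorting with no minimum could place a nucleus by 1 UMI. Male library 4 gave 12 of the 39 nuclei of the *Atp13a5* set. The *Slc47a1* set was found in 9 libraries and made up 50% of nuclei in female libraries 2, 4 and 5 and in male library 2, 51.4% in male library 3 and 11.1% in male library 4. The *Lama1* set was found in all 10 and made up 52% in female library 1, 20% in male library 3 and 11.1% in male library 4. The *Atp13a5* set ranged from 8.33% in female library 4 to 29.2% in female library 3 among the female libraries with at least 10 nuclei, and reached 66.7% in male library 4.

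The 250 bases before the RefSeq start (build GRCm38.p6) are printed for 1 sorting gene of each set as the sequence context of these genes, 5′ to 3′ on the gene's own strand. They are *Slc4a10* at chr2:62046265-62046514 (plus strand), *Slc7a11* at chr3:50443614-50443863 (minus strand) and *Atp13a5* at chr16:29378733-29378982 (minus strand). Capitals mark any match to the 4 motifs searched on both strands, which were TGTTTAC (forkhead), AGGTGTGA (T-box), GGAATG (TEAD) and GCCNNNGGC (AP-2).
Slc4a10: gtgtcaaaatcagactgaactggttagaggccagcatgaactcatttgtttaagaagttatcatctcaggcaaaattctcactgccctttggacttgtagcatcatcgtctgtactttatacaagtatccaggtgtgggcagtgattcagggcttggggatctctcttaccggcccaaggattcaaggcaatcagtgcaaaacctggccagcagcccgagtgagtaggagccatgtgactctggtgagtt
Slc7a11: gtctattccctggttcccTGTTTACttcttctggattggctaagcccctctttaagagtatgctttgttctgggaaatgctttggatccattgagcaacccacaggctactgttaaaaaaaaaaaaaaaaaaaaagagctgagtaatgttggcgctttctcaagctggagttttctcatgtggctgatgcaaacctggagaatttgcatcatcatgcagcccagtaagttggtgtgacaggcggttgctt
Atp13a5: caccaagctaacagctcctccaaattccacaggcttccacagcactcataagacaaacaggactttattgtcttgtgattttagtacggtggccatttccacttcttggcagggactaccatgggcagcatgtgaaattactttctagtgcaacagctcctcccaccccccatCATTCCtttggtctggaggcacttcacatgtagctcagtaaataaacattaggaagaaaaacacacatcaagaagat
The *Slc7a11* window held 1 forkhead match, beginning 232 bases before the start, the *Atp13a5* window held 1 TEAD match on the other strand, beginning 77 bases before it, and the *Slc4a10* window held none. These matches are descriptions of the letters and not of binding.

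Some genes outside the triples differed between the sets. Of 1738 such genes with at least 60 UMIs, every library of one set lay above every library of the other 2 for 65 in the *Slc47a1* set (3.74%), 12 in the *Lama1* set (0.69%) and 25 in the *Atp13a5* set (1.44%). The genes named next were chosen after their values were seen. Levels are UMIs per 10000 UMIs of the set, averaged over libraries with at least 4 nuclei of it, which gave 7, 7 and 4 libraries. In the *Slc47a1* set, *Slit2*, a secreted guidance cue, was at 15.7 ± 4.97 (SD) and had 0 UMIs in the *Lama1* set. *Mgp*, an inhibitor of mineral deposition in matrix, was at 16.5 ± 9.16 against 0.0688 ± 0.182 in the *Lama1* set. *Adamtsl3*, a matrix protein, was at 11.3 ± 1.91 and the Wnt amplifier *Rspo3* at 6.69 ± 2.04. For *Slit2*, *Adamtsl3* and *Mgp*, every library of the *Slc47a1* set lay above every library of the other 2 sets. *Cdh1*, the epithelial adhesion molecule that is known from arachnoid barrier cells, was at 2.22 ± 1.23, with 51 UMIs there, 2 in the *Lama1* set and 0 in the *Atp13a5* set. *Ptgds*, also in the arachnoid list used below, went the other way. It was at 81.2 ± 166 in the *Slc47a1* set and 326 ± 276 in the *Lama1* set. Without male library 2 these means were 18.6 ± 15.3 and 231 ± 126.

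In the *Lama1* set, *Dcn*, the collagen-binding proteoglycan decorin, was at 24.7 ± 12 and *Slc6a13*, a GABA and taurine transporter, at 14.8 ± 10.3. In the *Slc47a1* set *Dcn* was at 5.83 ± 10.7, but male library 2 alone stood at 29.7. Without that library the mean was 1.84 ± 1.78, with a highest value of 4.65. *Slc6a13* was at 0.222 ± 0.441 there, and at 0.0586 ± 0.0909 without that library. Male library 2 was also the highest in the *Lama1* set, where the means without it were 21.3 ± 8.8 for *Dcn* and 11 ± 2.73 for *Slc6a13*. The receptor *Pdgfra* was at 6.91 ± 4.18 and *Igfbp2*, which binds insulin-like growth factors, at 7.13 ± 4.78. Their means in the other 2 sets were at most 0.604, and for both every *Lama1* library lay above every other one. The organic anion transporter *Slc22a6* gave 43 of its 46 UMIs in this set, and *Aox3*, an aldehyde oxidase, 101 of 108.

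The *Atp13a5* set carried *Notch3* at 7.73 ± 3.25 and *Ebf1* at 19.9 ± 5.13, both genes of the pericyte list. *Notch3* had 1 UMI in the *Slc47a1* set and 3 in the *Lama1* set. *Vtn*, the adhesion glycoprotein vitronectin, was not confined to it. It was at 55.4 ± 33.1 in the *Atp13a5* set, 16.8 ± 7.96 in the *Lama1* set and 0.581 ± 1.22 in the *Slc47a1* set. In the *Slc47a1* set, *Vtn* was at 3.26 in female library 3, 0.803 in male library 2 and 0 in every other library. *Slc6a20a*, a proline transporter, likewise bridged the *Lama1* set (22.3 ± 3.63) and the *Atp13a5* set (15.3 ± 7.62), and was at 1.19 ± 2.85 in the *Slc47a1* set. That last mean came from male library 2 (7.63), and without it was 0.114 ± 0.28.

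**Figure D2:**
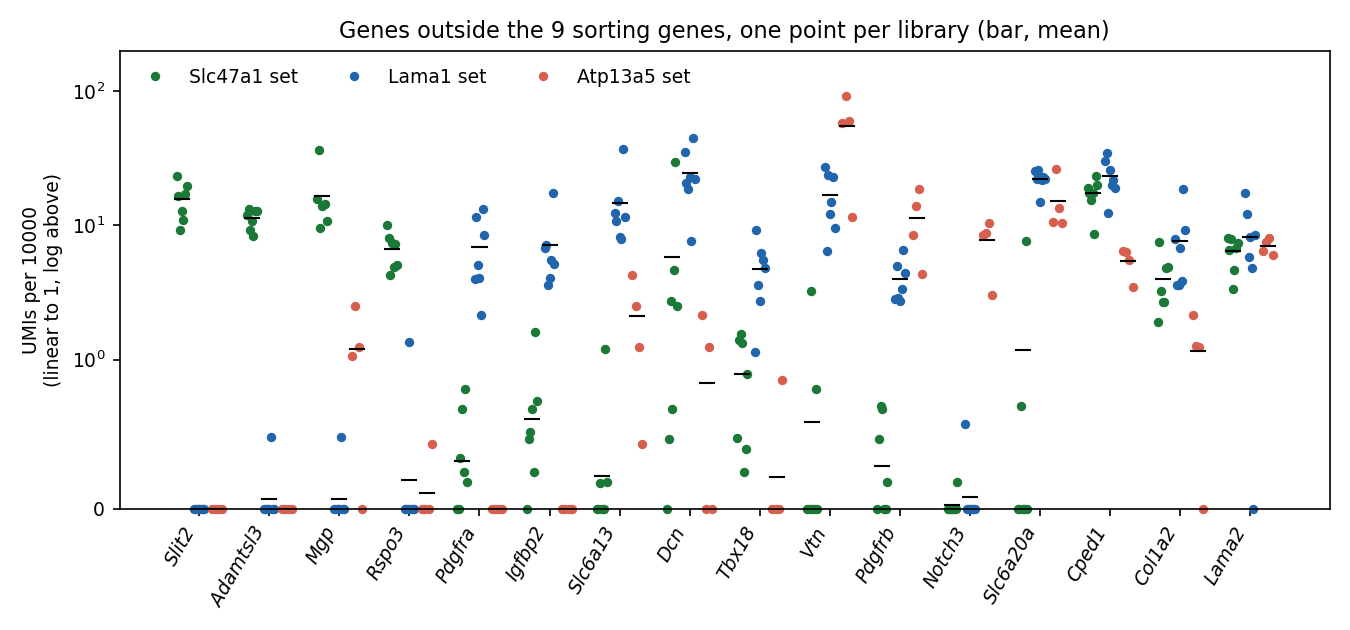
UMIs per 10000 UMIs (vertical axis, linear to 1 and logarithmic above) of 16 genes that were not used for sorting, with one point per library holding at least 4 nuclei of the set and a bar at the mean. Slit2 is at 0 in every Lama1 library, whereas Lama2 overlaps in all 3 sets.

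Collagen I had its lowest mean in the *Atp13a5* set, but values of single libraries overlapped between sets. *Col1a2* was at 3.96 ± 1.92 in the *Slc47a1* set, 7.67 ± 5.35 in the *Lama1* set and 1.16 ± 0.879 in the *Atp13a5* set. The lowest *Slc47a1* library (1.9) lay below the highest *Atp13a5* one (2.14). *Col1a1* gave 39, 42 and 3 UMIs, and was at 0 in the *Lama1* nuclei of female library 4 as in all 4 *Atp13a5* libraries. *Lama2*, the laminin chain of interstitial cells, did not follow the division, with 6.4 ± 1.76, 8.14 ± 5.6 and 7.01 ± 0.941. *Cped1* was at 17.3 ± 4.58, 23.3 ± 7.39 and 5.43 ± 1.38, so the gene that names the set was lowest in its pericyte-marker nuclei. Endothelial-list UMIs were 6.1, 6.35 and 13.8 per 10000 and choroid-list UMIs 17.4, 56.7 and 15.5, highest in the *Lama1* set. Their part in these levels was not tested. The ion channel gene *Trpm3* gave 90.5% of the choroid list's UMIs in the fibroblast sums and 95.5% in astrocytes. Neuron-list UMIs were 43.1, 76.3 and 120.5 per 10000. Without the 1 nucleus with the highest count in each set, these became 27, 33.1 and 70.

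Next, fibroblast sums were tested against the other types with edgeR's quasi-likelihood test, with the library as a block and Benjamini-Hochberg adjustment over 9842 genes. Calls needed an adjusted p below 0.05 together with a log2 difference above 0.5. The annotation was made from these same counts, so the tests describe the named nuclei and do not establish the type. Against the mean of the 7 other types, 1057 genes were higher (10.7%) and 1127 lower (11.5%), around a median of -0.25 on the log2 scale for all genes. The balance of the 2 directions depended on the scaling and the tool, with 1174 higher and 682 lower by RLE scaling and 1264 and 599 by DESeq2. With female libraries alone 1120 were higher and 719 lower. With mural-majority nuclei left out of both vascular types the counts were 1040 and 951. Without male library 4 they were 1144 and 1148, and without neuron-majority fibroblast nuclei, which left no sum for that library, 1097 and 1409.

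The share of genes called higher was 13.1% against astrocytes, 13.2% against ependymal cells, 15% against microglia, 16.4% against neurons, 11.8% against oligodendrocyte precursors (OPCs) and 16.7% against oligodendrocytes. Counting each of the 7 other types separately, 165 genes were higher in all 7 comparisons (1.68%). For 52 of them (0.528%) the fibroblast CPM was above that of every other type with a sum in the same library, in every library with a fibroblast sum. Female libraries 2 and 3 and male library 2 had no endothelial sum, and female library 2 had no ependymal one. There those types were not compared. Without male library 4, 201 genes passed all 7 tests and 161 of the 165 were among them. With mural-majority nuclei left out of both types, 217 passed and 158 of the 165 were among them. Without neuron-majority nuclei, 209 passed, with 161 of the 165 among them.

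The leading gene of the 52 was *Slc47a1*. Its fibroblast sums held 1234, 1394, 645, 713.3 and 1244 CPM in female libraries 1 to 5, and 1438, 753.6 and 70.5 CPM in male libraries 2, 3 and 4. No endothelial sum held a UMI of it. *Slc47a1* lies at chr11:61343401-61378345 (minus strand, mm10), next to its paralog *Slc47a2* at chr11:61301631-61342860. With 512 against 0 UMIs, *Slc47a1* was at least 224-fold higher in fibroblasts than in endothelial cells, taking 3 counts over the endothelial group as the floor. *Slc47a2*, with a median of 146.6 CPM, was at least 35.8-fold higher, but was not called by DESeq2 (adjusted p = 0.0556). Reads that fit both paralogs cannot be assigned here. All 85 fibroblast UMIs of *Slc47a2*, which was not used for sorting, lay in the *Slc47a1* set of nuclei.

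Of the 52 genes, 6 belong to the list of fibroblast transcription factors, of which 35 were tested. *Bnc2* had fibroblast sums of 52.9 to 2046 CPM (median 1412) and was 5.41 ± 0.281 higher (log2 difference ± SE) than in microglia, the type with its next highest level (adjusted p = 8.59e-27). *Eya2*, a coactivator of organ development, had a median of 660 CPM and was 6.23 ± 0.328 above oligodendrocytes. *Tbx15* had a median of 329.6 CPM and was 7.42 ± 0.481 above ependymal cells. *Foxd1*, a forkhead factor of stromal cells, had 52.9 to 338.5 CPM and was 3.23 ± 0.438 above endothelial cells, and *Tbx18*, known from mural and leptomeningeal cells, was 3.2 ± 0.533 above them. Of those not used for sorting, *Eya2* and *Tbx15* had 86.4% and 87.6% of their fibroblast UMIs in the *Slc47a1* set, whereas *Tbx18* had 73.1% in the *Lama1* set. *Foxd1* was spread, with 64% in the *Slc47a1* set, 22.8% in the *Lama1* set and 12.5% in the *Atp13a5* set. The *Slc47a1* set held 244293 of all 506478 fibroblast UMIs.

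The 4 matrix lists (collagens, basement membrane, glycoproteins with proteoglycans, and enzymes) gave 12 of the 52, out of 74 tested. *Dcn* had 1109, 597.3, 489.3, 475.6 and 511 CPM in female libraries 1 to 5 and 2625, 622.6 and 52.9 CPM in male libraries 2, 3 and 4. Endothelial sums of *Dcn* ran from 0 to 319 CPM, so the fibroblast sum of male library 4 lay among them. The difference was 3.34 ± 0.42 on the log2 scale (adjusted p = 2.76e-09). *Lama1* had 158.5 to 769 CPM against 0 to 178.7 CPM, a difference of 4.34 ± 0.498. *Col3a1*, a fibrillar collagen, had 26.4 to 214.6 CPM and differed by 4.37 ± 0.663. *Col4a6*, a basement membrane collagen, had 26.4 to 358.4 CPM and differed by 3.24 ± 0.529, and *Mgp* by 2.54 ± 0.355.

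Transporters, signals and transcripts of unknown function were also among the 52. *Slc6a13* had 88.1 to 867.3 CPM and was 3.07 ± 0.464 above endothelial cells. *Bmp5*, a bone morphogenetic protein, had 52.9 to 395.3 CPM and was 2.77 ± 0.387 above them, and *Trabd2b*, an inhibitor of Wnt ligands, 5.06 ± 0.485. *Prg4*, the lubricant glycoprotein lubricin, and *Tspan11*, a tetraspanin, had no endothelial UMI and were at least 34.9-fold and 41.9-fold higher. The non-coding genes *Gm6260* and *Gm5860* had medians of 259.6 and 140.5 CPM, and all their UMIs in the 3 sets lay in the *Slc47a1* set. *Aox3* had a median of 114 CPM and 3 endothelial UMIs in all.

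RefSeq promoter windows of 250 bases were found for 36 of the 52 genes. Of these, 8 (22.2%) held the TEAD letters, against 12.6% of 27025 genes, and 8 (22.2%) held the AP-2 letters, against 13.6%. Forkhead and T-box letters were in 0 of 36, against 3.09% and 1.14% of all. No test was made of these shares.

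Against endothelial cells, 987 genes were higher in fibroblasts (10%) and 1268 lower (12.9%), around a median of 0.01 for all genes. For 120 of the higher genes (1.22%) every fibroblast sum lay above every endothelial sum, and for 302 of the lower genes (3.07%) every fibroblast sum lay below. When only the 5 libraries with both sums were used, 149 were higher and 299 lower. With mural-majority nuclei left out of both types, 967 were higher and 1254 lower, and without male library 4, 1025 and 1255. Without neuron-majority fibroblast nuclei, 891 were higher and 1355 lower. Lists below were chosen with results of these data known, and their counts stand beside the shares just given. A list gene could pass the expression filter through the type where it is high, which favours calls in that direction. Members that did not pass are not in the counts. Tested were 13 of 21 collagen genes, 18 of 41 glycoprotein and proteoglycan genes, 11 of 31 Wnt genes and 6 of 18 retinoic acid genes.

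**Figure D3:**
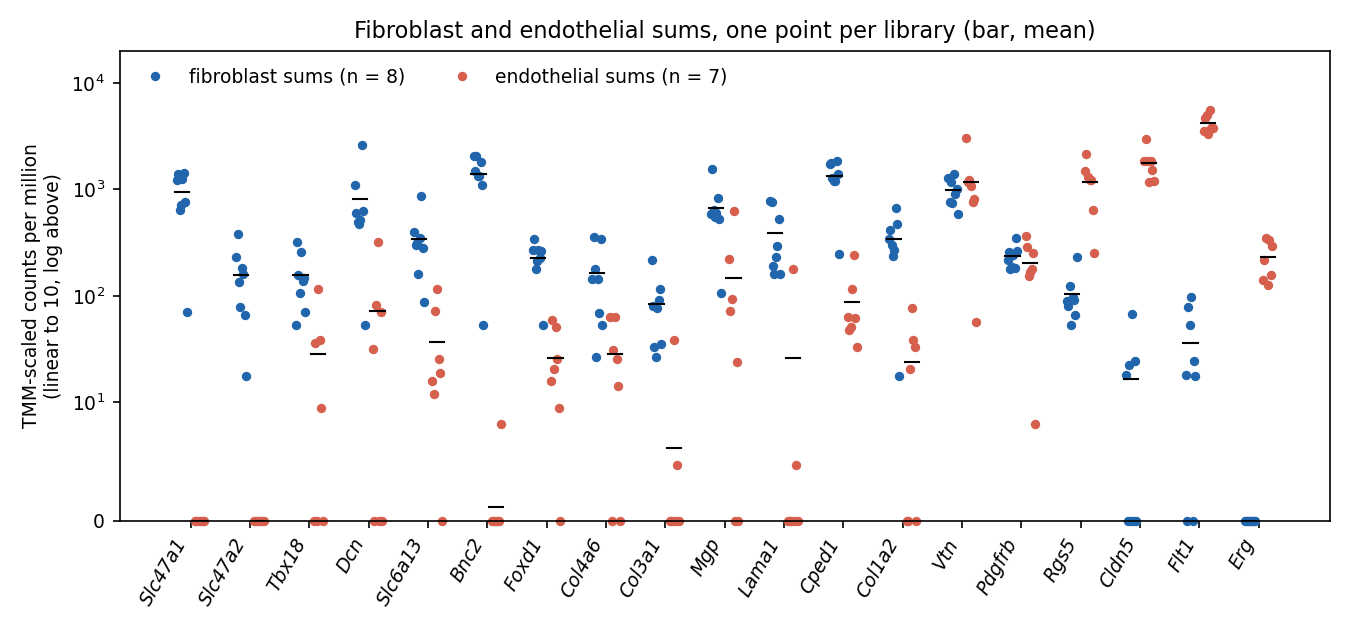
CPM (counts per 1000000 of the TMM-scaled library size, vertical axis, linear to 10 and logarithmic above) of 19 genes in 8 fibroblast and 7 endothelial sums, with one point per library and a bar at the mean. Slc47a1 and Slc47a2 are at 0 in all 7 endothelial sums and Erg at 0 in all 8 fibroblast sums, while Vtn and Pdgfrb overlap.

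All 18 tested genes of the 20-gene fibroblast list were called higher, with a median difference of 3.48. Of 13 fibrillar and beaded collagen genes tested, 11 were higher and 0 lower, with a median of 4.25. *Col1a1* had 0 to 273.9 CPM (median 161.9) against a highest endothelial sum of 25.5 CPM. *Col1a2* had 237.8 to 661.9 CPM in all sums but that of male library 4, which was at 17.6 CPM, and endothelial sums reached 76.6 CPM. Its difference was 3.61 ± 0.42 (adjusted p = 7.76e-11). *Col6a1* had no endothelial UMI and was at least 23.6-fold higher.

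Basement membrane genes went both ways. Of 22 tested, 9 were higher and 4 lower. *Lama2* had 317 to 1019 CPM in fibroblasts and 32.7 to 345.5 CPM in endothelial cells, a difference of 2.1 ± 0.338. *Col4a1* and *Col4a2*, the common network-forming chains, were lower in fibroblasts, by -1.2 ± 0.263 and -0.95 ± 0.289. *Sparc*, a collagen-binding matrix protein, was lower by -1.86 ± 0.253. Among 18 matrix glycoprotein and proteoglycan genes, 10 were higher and 2 lower. The proteoglycan *Ogn* was among the higher ones, with a lowest fibroblast sum of 35.2 CPM against a highest endothelial sum of 15.8 CPM. Both values rest on very few UMIs. Fibronectin, *Fn1*, was lower by -1.07 ± 0.32. Among 21 matrix enzyme genes, 12 were higher and 1 lower, the lower one being the protease *Adamts1*.

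Transporters of the leptomeninges were mostly higher. Of 26 tested genes of a leptomeningeal transport list, 17 were higher and 4 lower, with a median of 2.16. Among the higher ones, *Slc1a3* and *Slc4a4* are also in the astrocyte list, of which 5 of 11 tested genes were higher. The transport list summed to 8984 ± 876 CPM in astrocytes, with 49% of its UMIs from *Slc4a4*, against 10400 ± 2885 CPM in fibroblasts. *Slc4a10* had 193.8 to 2718 CPM against 0 to 163.7 CPM, a difference of 5.43 ± 0.436. *Slc7a11* had 511.6 to 1753 CPM against 0 to 216.9 CPM, a difference of 4.52 ± 0.418. *Slc6a20a* had a median of 795.7 CPM against 189.1 CPM and differed by 2.11 ± 0.297. The organic anion transporter *Slc22a8* was lower, with 79.6 to 188.4 CPM against 330.9 to 421.1 CPM, so the groups did not overlap (-1.38 ± 0.319, adjusted p = 0.000853). Its relative *Slc22a6* was higher by 3.88 ± 0.692.

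All 26 tested genes of the endothelial transport and barrier list were lower in fibroblasts, with a median of -3.1. *Cldn5*, the main tight junction protein of brain vessels, had 0 to 67.5 CPM in fibroblasts and 1161 to 2966 CPM in endothelial cells, a difference of -5.97 ± 0.315. *Slc2a1*, the glucose transporter of the barrier, differed by -5.33 ± 0.311 and *Abcb1a*, a drug efflux pump, by -2.81 ± 0.271. All 18 tested genes of the endothelial marker list were lower as well. *Flt1*, a receptor for vascular endothelial growth factor, had 0 to 96.4 CPM in fibroblasts against 3305 to 5579 CPM. The summed level of the 20-gene list was 540.6 ± 217.7 CPM (n = 8) against 19080 ± 3700 (n = 7), *Abcb1a* gave the most fibroblast UMIs, and *Erg*, *Vwf* and *Egfl7* were at 0.

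The genes named by rule as lowest against endothelial cells had no UMI in any fibroblast sum. *Prom1*, a membrane glycoprotein, was at 246.6 to 638.1 CPM in endothelial cells and so at least 68.2-fold lower in fibroblasts. *Erg*, a transcription factor of endothelial identity, was at least 42.3-fold lower. *Sema7a*, a semaphorin, was at least 30.3-fold lower, *Ddc*, an amino acid decarboxylase, 27.5-fold, *Layn* 24.9-fold, *Robo4* and *She* each 19.6-fold and *Slc35f2* at least 13-fold. *Robo4* was not called by DESeq2 (adjusted p = 0.267) nor, by edgeR, in nuclei with at most 1% mitochondrial UMIs (adjusted p = 0.0594), and *Slc35f2* was not called in those nuclei (adjusted p = 0.114, edgeR). On the other side, the antisense gene *Gm26740* had 153 fibroblast and 0 endothelial UMIs, at least 66.8-fold higher, although it did not differ from microglia (0.07 ± 0.283, adjusted p = 0.893). How its reads were told from those of the gene on the other strand is not stated in the methods. *Rspo3* and the non-coding gene *Gm29683* had 144 and 148 fibroblast UMIs and 1 and 2 endothelial ones, and exceeded ependymal cells, their next type, by 1.55 ± 0.264 and 2.01 ± 0.34.

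**Figure D4:**
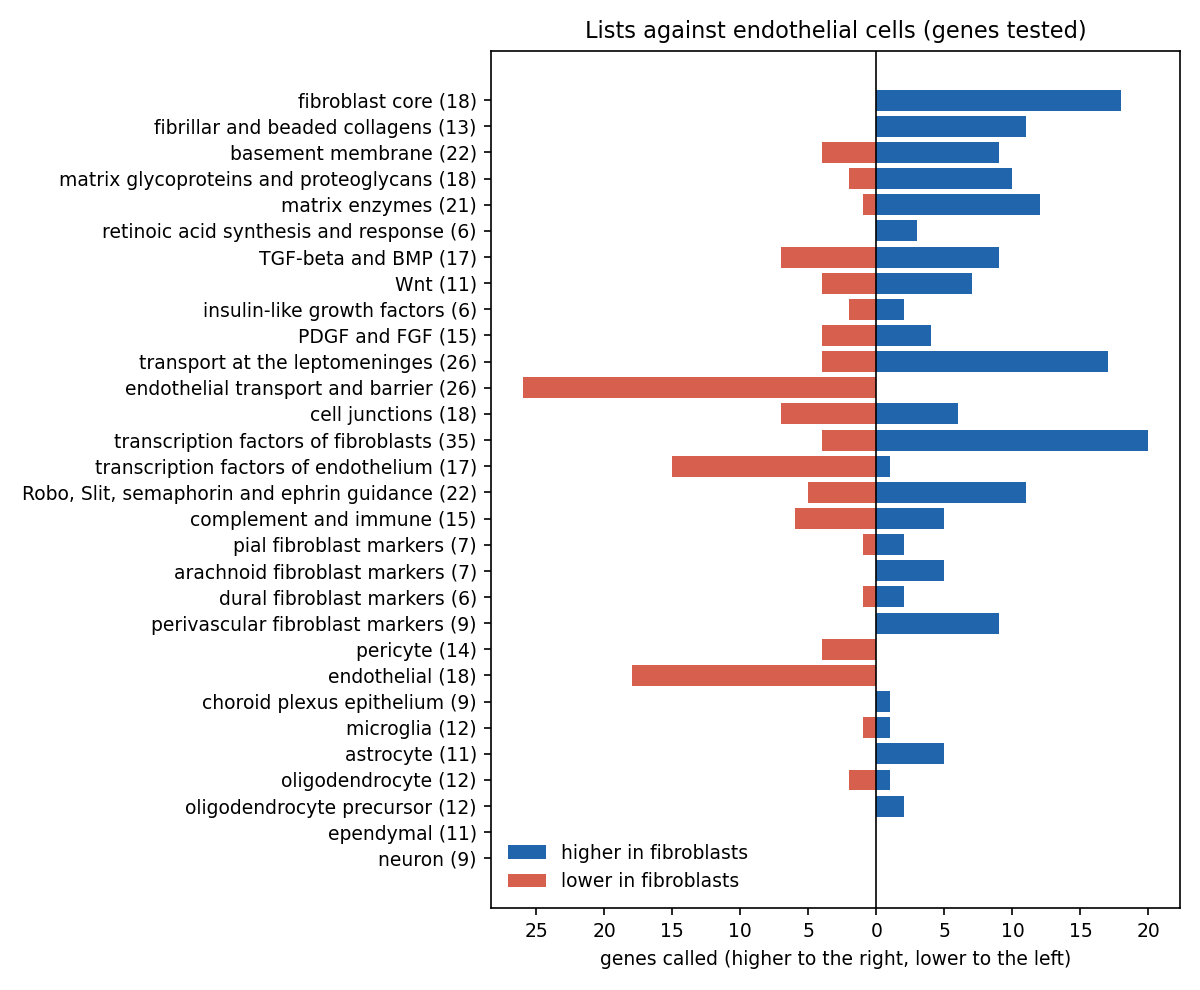
Number of genes called higher (to the right) or lower (to the left) in fibroblasts than in endothelial cells for each list with at least 6 genes tested, with the number tested in brackets. The endothelial barrier list has 26 of 26 genes lower and the fibroblast core list 18 of 18 higher.

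Regulators followed the same split. Of 35 tested transcription factors of fibroblasts, 20 were higher and 4 lower. *Foxd1*, *Tbx15*, *Tbx18*, *Zic1* and *Nr2f2* were among the higher ones and *Ebf1* was lower by -1.72 ± 0.283. Of 17 transcription factors of endothelium, 15 were lower and 1 was higher. The higher one was *Nr2f2*, known as a factor of venous endothelium, with a median of 208.2 CPM against 94.9 CPM and a difference of 1.01 ± 0.279. *Lef1*, an effector of canonical Wnt signalling at the barrier, had 17.9 to 136.9 CPM against 614.5 to 1625 CPM and differed by -3.31 ± 0.375.

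Signalling genes moved in both directions. In the TGF-beta and BMP list, 9 of 17 were higher and 7 lower. Ligands of the BMP branch were higher, among them *Bmp6* with 414.6 to 856.1 CPM against 0 to 306.3 CPM (3.82 ± 0.39), *Bmp7* (3.54 ± 0.619) and *Bmp5*. *Tgfb2*, a TGF-beta ligand, was lower by -1.97 ± 0.365. In the Wnt list, 7 of 11 were higher, including the ligand *Wnt5a* (1.49 ± 0.463), and 4 lower, including *Lef1*. Of 6 retinoic acid genes, 3 were higher and 0 lower. Among the higher ones were *Aldh1a1*, which makes retinoic acid (1.83 ± 0.532), and the receptor *Rarb* (2.74 ± 0.442). Of 6 genes of the insulin-like growth factor list, *Igfbp2* and *Igfbp5* were higher and *Igf1r* and *Igfbp7* lower. Among 15 PDGF and FGF genes 4 were higher and 4 lower, with *Pdgfra* higher by 3.22 ± 0.603 and *Pdgfb*, the ligand by which endothelium recruits pericytes, lower by -5.46 ± 0.639.

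Guidance genes were higher in 11 of 22 and lower in 5. *Slit2* had a median of 648.7 CPM against 23.7 CPM and differed by 4.52 ± 0.434. Of 18 junction genes, 6 were higher, including the connexins *Gjb2* (3.04 ± 0.553) and *Gjb6* (2.65 ± 0.51), and 7 lower. Of 15 complement and immune genes, 5 were higher and 6 lower. The complement inhibitor *Serping1* (2.61 ± 0.447) was higher, and the chemokine *Cxcl12* had 35.2 to 155.6 CPM against 417.5 to 1891 CPM (-3.26 ± 0.283).

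Lists of several meningeal layers held genes that were higher. Against endothelial cells, 5 of 7 arachnoid genes were higher and 0 lower, 2 of 7 pial genes were higher and 1 lower, 2 of 6 dural genes were higher and 1 lower, and 9 of 9 perivascular fibroblast genes were higher. The perivascular list has 12 genes. *Slc4a10*, used for sorting the *Slc47a1* set, gave 48.6% of its fibroblast UMIs. *Col15a1*, *Aox3* and *Colec12* of that list had higher means in the *Lama1* set, and *Lama2* overlapped in all 3 sets. The list's genes thus did not lie in 1 set. *Ptgds*, a prostaglandin synthase, gave 85.4% of the arachnoid list's fibroblast UMIs. It ran from 634.2 to 44620 CPM over the 8 sums and is also abundant in oligodendrocytes, where it gave 82% of that list's UMIs.

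Of 14 pericyte genes tested against endothelial cells, 0 were higher and 4 lower (*Rgs5*, *Higd1b*, *Ebf1* and *Ndufa4l2*), whereas 13 of 14 were higher than the mean of the other types. *Vtn* had 581.3 to 1398 CPM in fibroblasts and 57.3 to 3057 CPM in endothelial cells (-0.18 ± 0.257, adjusted p = 0.687). *Atp13a5* had 22.8 to 1251 CPM against 24.6 to 2086 CPM, so the groups overlapped for both genes. *Rgs5*, a regulator of G-protein signalling, had 52.8 to 229 CPM against 253.8 to 2129 CPM, and its groups did not overlap. The whole 16-gene list summed to 2901 ± 805.8 CPM in fibroblasts, where *Vtn* was most abundant, and to 5991 ± 2430 in endothelial cells, where *Ebf1* was, and no gene of the list was at 0 in either. In endothelial nuclei, 15 of 215 had a mural majority. Of the 12 smooth muscle genes, 2 could be tested, with *Casq2* lower in fibroblasts.

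The list counts were repeated without the nuclei that had a mural majority, in both types, and without male library 4. With mural-majority nuclei left out, which are chosen by these very genes, 7 of 10 tested pericyte genes were lower, *Vtn* and *Atp13a5* among them, and without male library 4, 6 of 15 were lower and 1 higher. The fibroblast list stayed at 17 of 17 and 18 of 18 higher, and the collagens at 9 of 12 and 11 of 13. The endothelial marker list stayed at 18 of 18 lower both times, and the barrier list had 25 of 26. Of 237 list genes called against endothelial cells, 233 could be tested again without mural-majority nuclei and 236 without male library 4. The call was lost for 10 each time and reversed for 0. The insulin-like growth factor list had 4 of 8 higher and 2 lower both times, and the dural list 4 of 8 higher and 1 lower. *Adamts1* did not pass the expression filter with mural-majority nuclei left out, so the matrix enzyme list then had 0 lower. With neuron-majority fibroblast nuclei left out, 236 of the 237 could be tested, and the call was lost for 14 and reversed for 0. The fibroblast list had 18 of 18 higher, the barrier list 24 of 26 lower and the pericyte list 4 of 12 lower.

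Genes of other types were measured beside these results. The 15-gene choroid plexus list summed to 2477 ± 1432 CPM in fibroblasts, of which the ion channel gene *Trpm3* gave 90.5%, and *Kcne2*, *Sostdc1* and *Aqp1* were at 0. Perivascular macrophage genes summed to 200.1 ± 93.5 CPM, mostly *Dab2*, with *Cd163*, *Pf4*, *Cbr2*, *Ms4a7* and *Clec10a* at 0. The neuron list reached 19570 CPM in the fibroblast sum of male library 4 and 15350 in that of female library 4, against 894.2 in female library 1, with *Kcnip4* most abundant. A single nucleus held 671 of the 1111 neuron-list UMIs of male library 4 and another 477 of the 581 of female library 4. The same held for 739 of 981 in female library 5 and 444 of 556 in female library 3. With that nucleus left out, male library 4 still held 13350 neuron-list UMIs per 1000000 UMIs, unscaled, against at most 4756 in any other library with its own highest nucleus left out. The endothelial sum of male library 4 was likewise the highest of its type, at 15840 CPM. Against endothelial cells, 0 of 9 neuron genes were called in either direction, with a median of 0.44. The astrocyte list summed to 4091 ± 1575 CPM against 1709 ± 505 in endothelial cells, with 5 of 11 tested genes higher. With neuron-majority fibroblast nuclei left out, 3 of the 11 astrocyte genes were higher and 2 lower, and 1 of 9 neuron genes was lower. The part of these genes in the differences was not tested.

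Fibroblasts made up 1.13% ± 0.669 of nuclei (SD, n = 10 libraries). The lowest share was 0.223% in male library 1 (2 of 895 nuclei, Clopper-Pearson 95% interval 0.0271 to 0.805) and the highest 1.98% in female library 3 (24 of 1211, 1.27 to 2.93). Intervals cover counting error only. Female libraries held 1.47% ± 0.578 and male libraries 0.622% ± 0.459, with female library 6 (0.457%) below the higher male ones, so the sets overlapped. The difference of 0.848 percentage points had p = 0.0381 in a two-sided exact permutation test (n = 6 and 4). Without male library 1 or male library 4 the p was 0.0952, and taken per endothelial nucleus it was 0.152. In a share of nuclei, fewer fibroblasts and more nuclei of other types cannot be told apart, nor can sex and any other difference between the 2 sets of libraries.

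**Figure D5:**
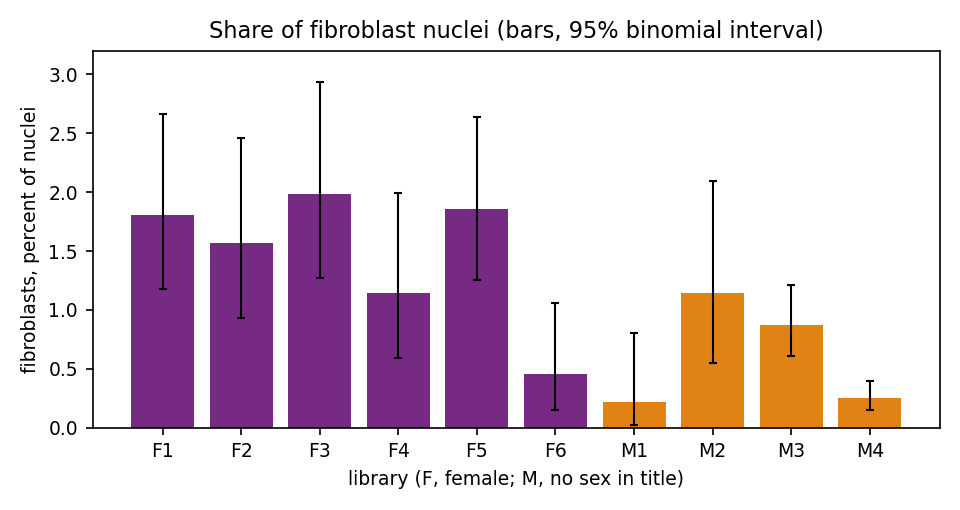
Fibroblasts as a percent of all nuclei (vertical axis) in each library, with 95% Clopper-Pearson intervals. Female libraries range from 0.457% to 1.98% and male libraries from 0.223% to 1.14%.

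Split by leading genes, the *Slc47a1* set made up 0.671% ± 0.277 of nuclei in female and 0.262% ± 0.291 in male libraries, and the *Lama1* set 0.525% ± 0.231 and 0.193% ± 0.186. The *Atp13a5* set was at 0.229% ± 0.201 and 0.142% ± 0.0332. The two-sided exact permutation p was 0.0571 for the *Slc47a1* set, 0.0381 for the *Lama1* set and 0.476 for the *Atp13a5* set. Adjusted over the 3 comparisons, the exact p was 0.0857, 0.0857 and 0.476, so none passed. With the *Atp13a5* set not counted as fibroblasts, the female and male shares were 1.24% ± 0.429 and 0.48% ± 0.462, and the exact p of the difference was 0.0381 again.

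Between the female and male sums within fibroblasts, 929 genes that hold UMIs in both sets of libraries were tested, and 2 differed (0.215%). *Xist*, the non-coding RNA of the inactive X chromosome, had 1301 to 1592 CPM in the 5 female sums and 0 in the 3 male ones. *Prnp*, which encodes the prion protein, had 0 in all 5 female sums and 273.9, 417.8 and 317.1 CPM in male libraries 2 to 4 (adjusted p = 0.0301, edgeR). With male library 2, 3 or 4 left out in turn, 1 gene was called each time instead of 2, and DESeq2 called 10. Sex and the other differences between the 2 sets of libraries, such as the genes that hold UMIs in the matrix, cannot be told apart for *Prnp*. At an unadjusted p under 0.05 there were 56 genes (6.03%).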

How the data were processed

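The study's authors aligned reads with Cell Ranger. The submitters' processing notes give version 6.1.1 and build mm10. The study's methods name an earlier version, so which version made which library's counts is uncertain. They removed nuclei with fewer than 200 genes or over 5% mitochondrial reads and doublets, and clustered and named the nuclei. The deposited counts are UMIs per gene and nucleus, unnormalized, for 33502 gene symbols. The deposited cell table gives library, sex, cell type and percent mitochondrial reads. Its sums matched the matrix in all 20503 nuclei. Coordinates are from GENCODE M21.

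Counts were summed per library and type (at least 10 nuclei, 73 sums) and fitted in edgeR 4.0.16 (R 4.3.3; TMM, default expression filter, library block); the fit was tested on simulated data. DESeq2 1.42.0, other scaling, filters, sum sizes and left-out libraries were alternatives. Genes were named by fixed rules. These took *Cped1*, the 20 leading genes, 12 higher and 8 lower against endothelial cells, and list members. A leading gene was called higher than each type and, in every library, lay above each type that had a sum there. Set genes and some list examples were chosen after their values were seen. Members and lists were chosen with earlier results of these data known. Columns of the cell table that were not needed, 21 in number, were not used. Since nothing ties libraries to single animals, p-values measure spread between libraries. Proportions used Python 3.11.15 with scipy 1.17.1. Some items are not reported here.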

Additional observations from a re-analysis of the deposited data

Results flagged for a closer look

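Each group of 4 to 10 libraries was checked for a highest or lowest value set apart from the rest. Of 24 such groups, 5 had one. Chance gives about 1 in 20 for separate groups, but some of the 5 share a library. The share of mural-majority nuclei was 72.2% in male library 4. That library also had the lowest *Cped1*, at 246.6 CPM. The highest values of *Dcn* (2625 CPM) and *Slc6a13* (867.3 CPM) were in male library 2, a sum of 10 nuclei, and the highest *Col3a1* (214.6 CPM) was in female library 1. The 7 fibroblast nuclei of the 2 libraries whose sums were left out held 1210 *Cped1* UMIs per 1000000, with a UMI in 7 of 7 nuclei, against 2.88 per 1000000 in oligodendrocytes.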

How the results depend on the processing

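Among 451 values of 21 named genes against the mean of the other types, none changed its call or sign. Of 453 values against endothelial cells, 4 missed the threshold and none reversed. They were *Slc47a2* and *Robo4* with DESeq2, and *Robo4* and *Slc35f2* with at most 1% mitochondrial UMIs. Apart from *Cped1*, these genes had been chosen for large differences in the main fit, which favours unchanged calls. A gene gave a value only where it could be tested. In male libraries alone, 15 of the 20 leading genes and 14 of the 20 named against endothelial cells could be tested. Nuclei with at most 1% mitochondrial UMIs left fewer nuclei and gave 475 genes higher and 39 lower against the mean, 190 and 97 against endothelial cells and 94 higher than each type. Male libraries alone gave 609, 191, 251, 448 and 70 for the same counts, and female libraries alone 719 lower than the mean. With sums of at least 20 nuclei, 599 genes were lower than the mean, and 555 were higher and 686 lower than endothelial cells. Lower calls against the mean were 599 with DESeq2 and 682 with RLE scaling. With no filter on low counts, 1586 were higher than the mean and 248 than each type. Only libraries with both sums gave 149 and 299 against endothelial cells.

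Without the replicate block of library, 988 and 916 genes were higher and lower than the mean, 807 and 1050 against endothelial cells, and 123 higher than each type. Leaving out 1 library gave 969 to 1147 higher and 754 to 1148 lower than the mean, 757 to 1025 and 1100 to 1255 against endothelial cells, and 129 to 201 higher than each type. The 2 genes that differed between female and male sums became 10 with DESeq2, 32 over all genes after the filter, and 1 to 2 with 1 library left out. The share was 2.35% of non-neuronal nuclei and 1.04% to 1.23% with 1 library left out. The female minus male difference was 0.715 to 1.05 with 1 library left out and 0.959 per endothelial nucleus. Of the 10 leave-outs, 6 gave an exact p above 0.05. The causes were not tested.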
